A study of Mus musculus with 6 samples.

Results

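The genes described here encode the 10 subunits of the RNA exosome, Exosc1 to Exosc10, and were chosen by symbol from the 23850 gene entries of each deposited table. All 10 were found once in every table, and all 10 were among the 10096 entries tested, those whose level averaged at least 1 FPKM. FPKM is the number of sequenced fragments scaled for transcript length and for the library total, so levels of different genes can be set side by side. The libraries are of messenger RNA from cultures of germinal centre B cells made in vitro from wild-type C57BL/6J mice, 3 treated with the GSK3 inhibitor CHIR99021 and 3 with its solvent, DMSO. In both groups, naive follicular B cells were first grown for 4 days on feeder cells that express CD40L with IL-4 (1 ng/ml). Treatment then lasted 36 h, again on CD40L feeder cells and with IL-21 (10 ng/ml) in both groups. The dose of CHIR99021 was 3 uM, a figure that the labels also print beside DMSO. The design is described as biological triplicates, and the sources used here do not say how the treated cells were separated from the feeder cells.

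The RNA exosome is a barrel-shaped complex that trims and degrades RNA from its 3′ end. A ring of 6 proteins related to bacterial RNase PH (EXOSC4 to EXOSC9) carries a cap of 3 RNA-binding proteins (EXOSC1, EXOSC2 and EXOSC3), and in human cells this core has no nuclease activity of its own. Cleavage comes from EXOSC10 in the nucleus and nucleolus and from DIS3 or DIS3L, which bind the complex from outside. The complex matures ribosomal and small nucleolar RNA and removes short-lived nuclear transcripts.

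The upstream sequences of 2 subunit genes are shown, to set Exosc2 beside the nuclease gene Exosc10. Exosc2 was called in the fit that pairs cultures by replicate number, and Exosc10 did not pass any test here. They are also the only matched members with a window free of exons in the GENCODE basic annotation. RefSeq promoter entries (GRCm38.p6, the assembly of mm10) matched 8 of the 10 genes, with 2 start sites for Exosc10. Exosc4 and Exosc9 were not matched. Each line gives the 250 bases before the start site, read 5′ to 3′ along the gene, from chr2:31670465-31670714 (plus strand) and chr4:148558169-148558418 (plus strand), and the third line gives 26 bases of the Exosc5 promoter, chr7:25659099-25659124 (plus strand). Capitals mark matches, on either strand, to the motifs listed after them.
Exosc2: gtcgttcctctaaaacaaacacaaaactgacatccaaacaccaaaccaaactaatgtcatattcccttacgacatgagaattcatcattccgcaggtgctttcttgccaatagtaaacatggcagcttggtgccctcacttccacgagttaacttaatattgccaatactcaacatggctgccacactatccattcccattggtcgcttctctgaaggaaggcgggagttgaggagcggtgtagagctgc
Exosc10: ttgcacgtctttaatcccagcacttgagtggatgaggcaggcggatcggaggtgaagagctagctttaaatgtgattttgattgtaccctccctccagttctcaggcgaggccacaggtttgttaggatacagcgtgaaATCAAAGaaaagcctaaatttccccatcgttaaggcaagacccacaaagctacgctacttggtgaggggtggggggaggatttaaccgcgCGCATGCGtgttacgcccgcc
Exosc5: aacgctgagcCACGTGctagggccaa

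The motifs searched were the E-box bound by MYC and MAX (CACGTG), the TCF/LEF core (ATCAAAG), the GC box of SP and KLF factors (GGGCGG), an ETS core (CCGGAAG) and an NRF1 core (GCATGCG). The TCF/LEF letters, the motif of the factors that work with beta-catenin when GSK3 is inhibited, were in the window of Exosc10 and of no other matched member, against 3.21% of all 32851 promoter windows of the same length. That match ends 104 bases before the Exosc10 start site. The E-box was in the window of Exosc5 alone, 38 bases before its start site, against 6.02% of all windows. The GC box was present for 5 of the 8 matched members (Exosc1, Exosc3, Exosc5, Exosc7 and Exosc8), against 32.7% of all windows. The NRF1 letters were found for Exosc5 and Exosc10 (3.02% of all windows), in Exosc10 as overlapping matches on both strands, and the ETS core was found at the second Exosc10 start site only (6.91%). The windows of Exosc2 and Exosc6 held none of the 5 motifs.

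All 10 subunit genes were expressed in every library, and the order of their levels was similar in both groups. Exosc3 had the highest mean level, at 64.7 ± 3.98 FPKM with CHIR99021 and 68.9 ± 6.80 FPKM with DMSO (SD, n = 3 each, as for all levels below). Exosc4 had the lowest level in all 6 libraries, at 11.2 ± 0.926 FPKM with CHIR99021 and 8.998 ± 1.29 FPKM with DMSO, and Exosc1 was next to last in all 6. By mean level over the 6 libraries, the genes lay between the 46.2 percentile (Exosc4) and the 88.7 percentile (Exosc3) of all tested genes. With CHIR99021, the mean levels fell in the order Exosc3, Exosc8, Exosc7, Exosc5, Exosc2, Exosc10, Exosc6, Exosc9, Exosc1 and Exosc4. With DMSO, the order was Exosc3, Exosc5, Exosc8, Exosc7, Exosc10, Exosc2, Exosc6, Exosc9, Exosc1 and Exosc4. Of the 9 pairs of neighbours in each order, 6 had overlapping ranges. The steps without overlap with CHIR99021 were those below Exosc5, below Exosc9 and below Exosc1, and with DMSO those below Exosc8, below Exosc9 and below Exosc1. Overlap of ranges does not compare genes within a library. With CHIR99021, Exosc3 lay above Exosc8, Exosc2 above Exosc10 and Exosc10 above Exosc6 in all 3 libraries. With DMSO, Exosc7 lay above Exosc10 and Exosc10 above Exosc2 in all 3. The other overlapping pairs were not in the same order in all libraries of their group.

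**Figure D1:**
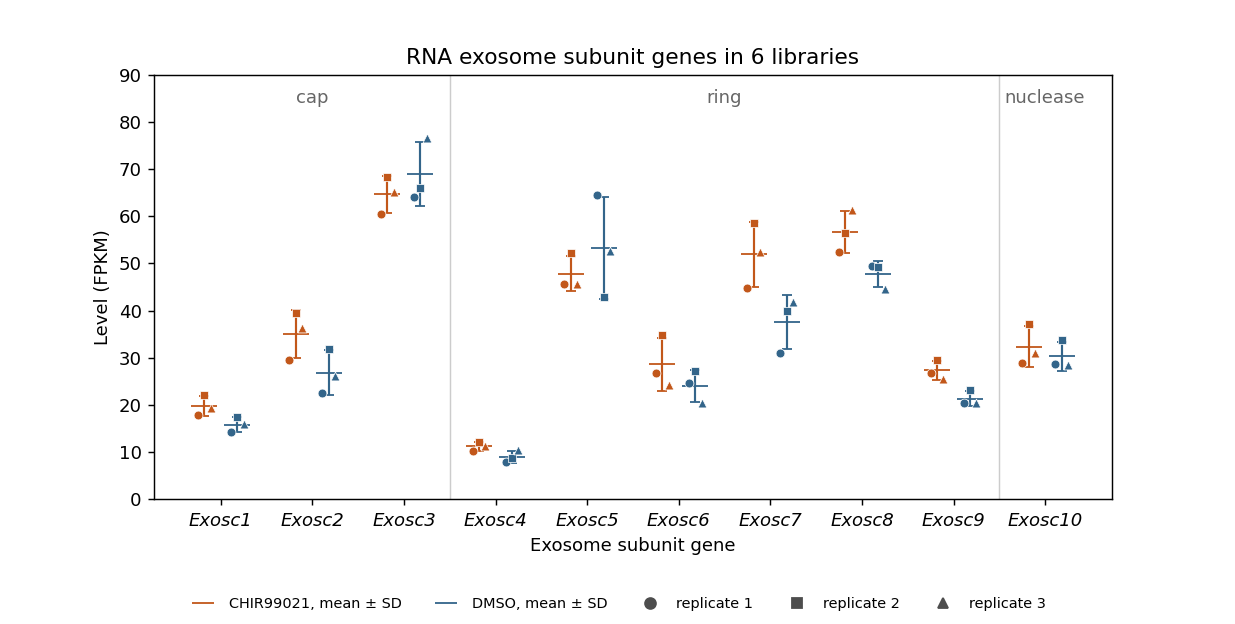
Level in FPKM (linear axis) of each exosome subunit gene in the 3 CHIR99021 libraries and the 3 DMSO libraries; points are libraries, marked by replicate number, and bars are the mean ± SD. Exosc3 is at the top at 64.7 (CHIR99021) and 68.9 FPKM (DMSO) and Exosc4 at the bottom at 11.2 and 8.998 FPKM, and the groups do not overlap for Exosc1, Exosc7, Exosc8 and Exosc9.

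With CHIR99021, 1 of the 10 subunit genes, the ring gene Exosc9, was called higher and 0 were called lower by limma over all tested genes. The share of 1 in 10 is near the background, since 21.4% of all tested genes were called, 8.13% higher and 13.3% lower. At an unadjusted p under 0.05, 5 were higher and 0 lower, against 15.0% higher and 20.8% lower among all tested genes. The libraries with the same replicate number deviated together from their group means, so the cultures are treated here as pairs as well. The titles only number the replicates, and the pairing was inferred from these same values. In the fit with the replicate number as a block, 7 of the 10 genes were called higher and 0 lower, and those were Exosc1, Exosc2, Exosc4, Exosc6, Exosc7, Exosc8 and Exosc9. In that fit 42.8% of all tested genes were called, 18.4% higher and 24.4% lower. The changes were small, with fitted log2 changes (all on the log2(FPKM + 1) scale) from -0.14 to 0.46 and a median of 0.27, against a median of -0.04 for all tested genes. The log2 change was above 0 for 8 of the 10 genes (45.2% of all tested genes), and those 8 were higher with CHIR99021 in every replicate number (29.3%). The groups did not overlap for 4 genes, all higher with CHIR99021, against 40.1% of all tested genes in either direction and 17.0% higher, and these 4 reached 0.1, the smallest p that an exact two-sided permutation test of 3 against 3 can give.

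The count depended on how libraries were put on a common scale. It was 3 of 10 with upper-quartile scaling, 4 with quantile normalization and 0 when each library was scaled to the same total, against 22.7%, 23.8% and 16.2% of all tested genes called in either direction in the same fits. All of these member calls were higher, and 1115, 1232 and 442 of the 10096 tested genes were called higher in those fits. The share of higher genes among all calls was 48.7%, 51.2% and 27.0% in these fits, against 37.9% for FPKM as deposited. In all 4 scalings 8 of the 10 members had a log2 change above 0. That count could hardly change, since the members nearest 0 were Exosc3 (-0.09) and Exosc10 (0.09) in FPKM as deposited. The median log2 change of all tested genes moved by only 0.0496 with upper-quartile scaling, 0.0651 with quantile normalization and -0.031 with the same total. The call of Exosc9 was lost when any library except DMSO replicate 2 was left out, with a limma adjusted p of 0.0819 to 0.128 in those 5 fits and 0.0349 without DMSO replicate 2.

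Of the 3 cap genes, which encode the RNA-binding face of the complex, Exosc1 and Exosc2 were higher with CHIR99021 in each replicate number and Exosc3 was not. Exosc2 (the RRP4 homologue; chromosome 2, 31670737 to 31681307) had 29.6, 39.4 and 36.3 FPKM in CHIR99021 replicates 1, 2 and 3, against 22.5, 32.0 and 26.1 FPKM in DMSO replicates 1, 2 and 3. Replicate 2 was highest in both groups, and the groups overlapped because DMSO replicate 2 lay above CHIR99021 replicate 1. Its log2 change was 0.38 ± 0.15 (SE), with an adjusted p of 0.117 by limma, or 0.00428 with the replicate block. Exosc1 (the CSL4 homologue; chromosome 19, 41922980 to 41933314) had 17.8, 22.1 and 19.3 FPKM in CHIR99021 replicates 1, 2 and 3, against 14.2, 17.4 and 15.9 FPKM in DMSO replicates 1, 2 and 3. Its lowest CHIR99021 library lay just above its highest DMSO library. Its log2 change was 0.30 ± 0.12 (SE; limma adjusted p = 0.107, or 0.0112 with the replicate block). Exosc3 (the RRP40 homologue; chromosome 4, 45316630 to 45320603) had 60.5, 68.4 and 65.1 FPKM in CHIR99021 replicates 1, 2 and 3, against 64.1, 65.9 and 76.7 FPKM in DMSO replicates 1, 2 and 3. The groups overlapped, and the difference changed sign between replicate numbers. Its log2 change of -0.09 had a 95% confidence interval of -0.31 to 0.14 (limma adjusted p = 0.573, or 0.352 with the replicate block).

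The 6 ring proteins assemble as heterodimers, known from the yeast and human complexes, that pair EXOSC4 with EXOSC9, EXOSC7 with EXOSC6 and EXOSC8 with EXOSC5. The genes of the first 2 dimers all had log2 changes above 0, and those of the third dimer had changes of opposite sign. The negative sign, of Exosc5, was lost without DMSO replicate 1, where its log2 change was 0.01. Exosc9 (the RRP45 homologue; chromosome 3, 36552606 to 36565727) had 26.9, 29.6 and 25.5 FPKM in CHIR99021 replicates 1, 2 and 3, against 20.3, 23.2 and 20.5 FPKM in DMSO replicates 1, 2 and 3. Every CHIR99021 library lay above every DMSO library, and the gene rose by 1.28-fold in mean FPKM (log2 change 0.34 ± 0.10 SE, limma adjusted p = 0.0419, or 0.00558 with the replicate block). The deposited span of Exosc9 shares 863 bases with that of Ccna2, a cyclin gene on the opposite strand. Ccna2 had 99.6 ± 5.45 FPKM with CHIR99021 and 111 ± 4.71 FPKM with DMSO, the other direction. Its part in the Exosc9 values was not tested, since the sources used here do not give the strand setting of the quantification. The dimer partner gene Exosc4 (the RRP41 homologue; chromosome 15, 76327397 to 76330670) had 10.2, 12.05 and 11.3 FPKM in CHIR99021 replicates 1, 2 and 3, against 7.84, 8.76 and 10.4 FPKM in DMSO replicates 1, 2 and 3. DMSO replicate 3 lay above CHIR99021 replicate 1, so that the groups overlapped. Its log2 change was 0.29 ± 0.13 (SE; limma adjusted p = 0.146, or 0.0378 with the replicate block).

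Exosc7 (the RRP42 homologue; chromosome 9, 123113231 to 123136129) had the largest log2 change of the 10 genes, 0.46 ± 0.14 (SE). It had 44.8, 58.5 and 52.4 FPKM in CHIR99021 replicates 1, 2 and 3, against 31.0, 39.8 and 41.9 FPKM in DMSO replicates 1, 2 and 3. The groups did not overlap, and the ratio of means was 1.38, yet the limma adjusted p was 0.0546, or 0.00246 with the replicate block. The change placed Exosc7 at the 92.2 percentile of all tested genes. Its partner gene Exosc6 (the MTR3 homologue; chromosome 8, 111056339 to 111057599), which has a single exon, had 26.7, 34.9 and 24.2 FPKM in CHIR99021 replicates 1, 2 and 3, against 24.6, 27.1 and 20.3 FPKM in DMSO replicates 1, 2 and 3. Replicate 2 was highest in both groups and the groups overlapped (log2 change 0.24 ± 0.16 SE, limma adjusted p = 0.327, or 0.0353 with the replicate block). The deposited span of Exosc6 shares 532 of its 1261 bases with the alanyl-tRNA synthetase gene Aars on the same strand. Aars had 37.2 ± 5.07 FPKM with CHIR99021 and 31.4 ± 3.02 FPKM with DMSO (log2 change 0.23), and its part in the Exosc6 values was not tested.

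Exosc8 (the RRP43 homologue; chromosome 3, 54728679 to 54735364) had 52.5, 56.4 and 61.3 FPKM in CHIR99021 replicates 1, 2 and 3, against 49.4, 49.2 and 44.5 FPKM in DMSO replicates 1, 2 and 3. The groups did not overlap, and the difference within replicate 1 was the smallest of the 3, at 0.08 on the log2 scale. Its log2 change was 0.24 ± 0.09 (SE), with a limma adjusted p of 0.0940, or 0.0498 with the replicate block. Exosc5 (the RRP46 homologue; chromosome 7, 25659153 to 25668032) had 45.7, 52.1 and 45.6 FPKM in CHIR99021 replicates 1, 2 and 3, against 64.5, 42.9 and 52.6 FPKM in DMSO replicates 1, 2 and 3. It had the widest spread among DMSO libraries, 10.8 FPKM (SD), and DMSO replicate 1 stood highest. Its log2 change was -0.14, with a 95% confidence interval of -0.48 to 0.20 (limma adjusted p = 0.552, or 0.445 with the replicate block). Without DMSO replicate 1 that change was 0.01, so its sign rested on that library.

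Exosc10 (the RRP6 homologue; chromosome 4, 148558427 to 148582400), the nuclear nuclease of the complex, had 29.0, 37.2 and 31.0 FPKM in CHIR99021 replicates 1, 2 and 3, against 28.6, 33.8 and 28.4 FPKM in DMSO replicates 1, 2 and 3. The groups overlapped, and the log2 change of 0.09 had a 95% confidence interval of -0.19 to 0.37 (limma adjusted p = 0.647, or 0.284 with the replicate block). The difference was above 0 in 3 of 3 replicate numbers but turned to -0.01 without CHIR99021 replicate 2.

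**Figure D2:**
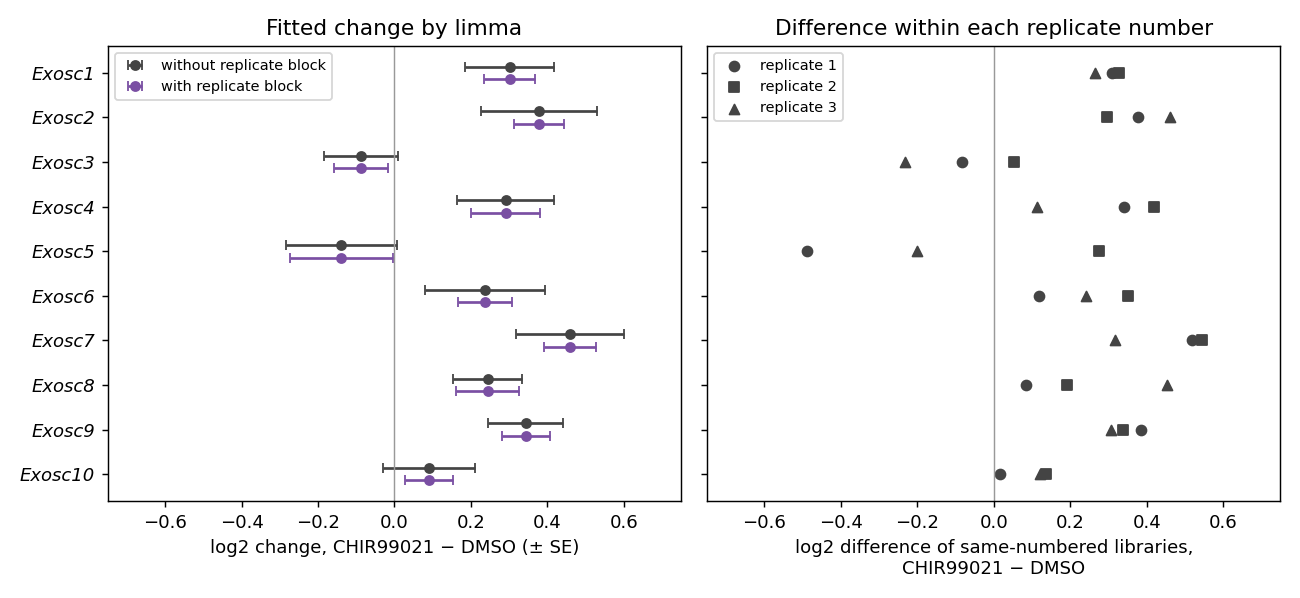
Left, fitted log2 change (CHIR99021 minus DMSO) of each subunit gene with its SE, without and with the replicate block; right, the log2 difference between the libraries of each replicate number. The estimates are the same in both fits, from -0.14 (Exosc5) to 0.46 (Exosc7), and for 8 genes all 3 differences lie above 0.

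The fitted log2 changes of the members were not all of the same sign, and whether members differed from each other was not tested. Their proportions within a library were compared as a description, with the pairs of genes chosen after their values were seen and no test. The ratio of Exosc7 to Exosc3 in FPKM was 0.742, 0.856 and 0.805 in CHIR99021 replicates 1, 2 and 3, against 0.484, 0.604 and 0.547 in DMSO replicates 1, 2 and 3. These ratios do not depend on the library total, and the groups did not overlap. The ratio of Exosc2 to Exosc3 was 0.489, 0.577 and 0.557 with CHIR99021 and 0.351, 0.485 and 0.340 with DMSO. The ratio of Exosc9 to Exosc5 ran from 0.560 to 0.588 with CHIR99021 and from 0.315 to 0.541 with DMSO, the lowest value coming from DMSO replicate 1. Exosc3 made up 17.2 ± 0.519% of the summed level of the 10 genes with CHIR99021 and 20.6 ± 1.88% with DMSO. The level of Exosc3 relative to Exosc4, the highest and the lowest member, was 5.79 ± 0.126 with CHIR99021 and 7.69 ± 0.419 with DMSO. The summed level of all 10 genes was 344, 411 and 372 FPKM in CHIR99021 replicates 1, 2 and 3, against 327, 340.1 and 337 FPKM in DMSO replicates 1, 2 and 3. In FPKM as deposited, every CHIR99021 sum lay above every DMSO sum, by 1.121 times on average, and CHIR99021 replicate 2 stood highest. As a share of the summed FPKM of the library, the 10 genes made up 0.0558%, 0.0738% and 0.0604% in CHIR99021 replicates 1, 2 and 3, against 0.0530%, 0.0645% and 0.0560% in DMSO replicates 1, 2 and 3. On that scale the groups overlapped, and the share was higher with CHIR99021 in each replicate number. The ring genes summed to 224 ± 18.5 FPKM with CHIR99021 and 193 ± 4.12 FPKM with DMSO, and the cap genes to 119 ± 11.1 and 112 ± 9.52 FPKM.

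**Figure D3:**
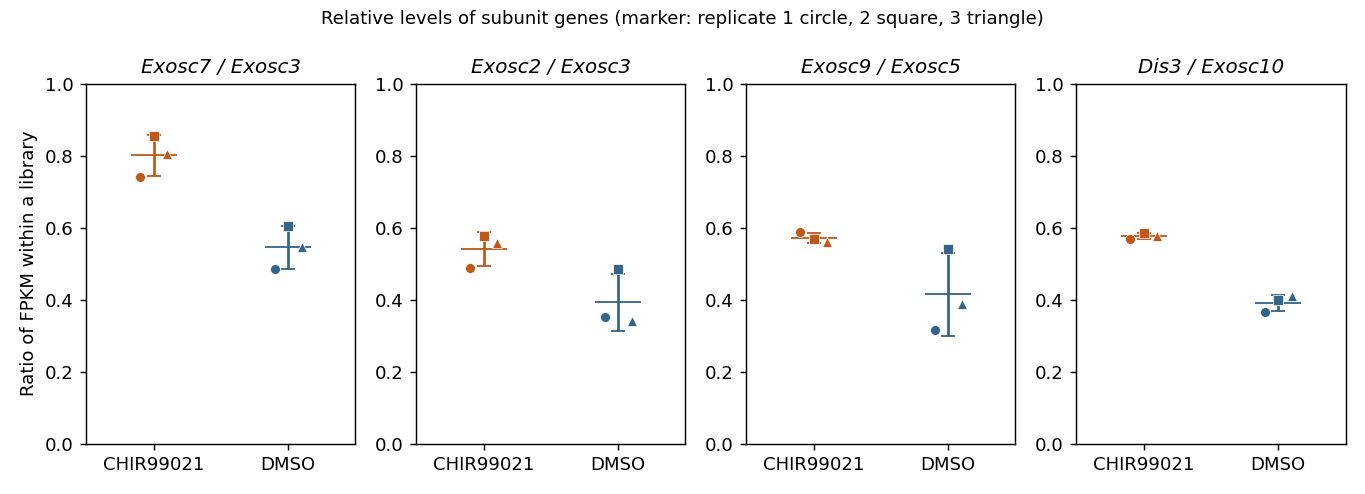
Ratio of the FPKM of gene pairs within each library (linear axis from 0), for CHIR99021 on the left and DMSO on the right of each panel; points are libraries and bars the mean ± SD. The Exosc7 to Exosc3 ratio averages 0.801 with CHIR99021 and 0.545 with DMSO, and the Dis3 to Exosc10 ratio 0.577 and 0.391, without overlap between the groups in any of the 4 panels. The pairs were chosen after the values were seen, so the lack of overlap is a description and not a test.

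Among 5 nucleases and direct cofactors of the complex, 2 were called higher and 0 lower, or 3 and 0 with the replicate block (median log2 change 0.40). Of all tested genes, 8.13% were called higher and 13.3% lower, or 18.4% and 24.4% with the replicate block. This list and the lists below were chosen with earlier results of these data known, so their counts are a description. Dis3, the main nuclease that joins the core, had 16.5, 21.8 and 17.9 FPKM in CHIR99021 replicates 1, 2 and 3, against 10.45, 13.5 and 11.6 FPKM in DMSO replicates 1, 2 and 3. The groups did not overlap, and Dis3 rose by 1.58-fold (log2 change 0.62 ± 0.14 SE, limma adjusted p = 0.0175). Its call was lost without CHIR99021 replicate 2 or 3 or DMSO replicate 1 or 3 (limma adjusted p = 0.0541, 0.0602, 0.0504 and 0.0617), and both Dis3 and Mphosph6 lost theirs with each library scaled to the same total (0.0780 and 0.0629). The ratio of Dis3 to Exosc10 in FPKM was 0.569, 0.586 and 0.577 in CHIR99021 replicates 1, 2 and 3 and 0.365, 0.398 and 0.410 in DMSO replicates 1, 2 and 3, again without overlap. This pair too was chosen after the values were seen. Mphosph6, which encodes the cofactor MPP6 that helps the nuclear exosome in processing ribosomal RNA, rose by 1.46-fold to 33.4 ± 3.07 FPKM with CHIR99021, against 22.9 ± 1.58 FPKM with DMSO (limma adjusted p = 0.00985). Skiv2l2, the older symbol of the gene for the nuclear exosome helicase MTR4, had 25.0 ± 4.26 and 18.7 ± 2.55 FPKM with CHIR99021 and DMSO (limma adjusted p = 0.0914, or 0.00340 with the replicate block). Dis3l, the gene of the cytoplasmic nuclease, had 6.57 ± 0.668 and 6.50 ± 1.06 FPKM, and C1d, the gene of a protein that binds EXOSC10, had 22.0 ± 0.807 and 22.1 ± 2.46 FPKM with CHIR99021 and DMSO, and neither passed in either fit.

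The SKI complex feeds RNA to the exosome in the cytoplasm, and HBS1L provides the bridge between them through a short isoform in human cells. Of these 4 genes, 2 were called higher and 0 lower, or 3 and 0 with the replicate block (median log2 change 0.39). The shares of all tested genes called higher were 8.13%, and 18.4% with the block. Hbs1l had 40.05, 44.6 and 47.0 FPKM in CHIR99021 replicates 1, 2 and 3, against 24.6, 27.7 and 23.1 FPKM in DMSO replicates 1, 2 and 3. It rose by 1.75-fold without overlap (log2 change 0.78 ± 0.10 SE, limma adjusted p = 0.00217). These values do not separate the isoforms of the gene. Wdr61, a scaffold subunit of the SKI complex that also belongs to the PAF1 complex, rose to 72.1 ± 1.60 FPKM with CHIR99021, against 56.5 ± 6.67 FPKM with DMSO (limma adjusted p = 0.0385). Its call was lost when any library except DMSO replicate 3 was left out (limma adjusted p = 0.0792 to 0.134) and with each library scaled to the same total (0.0670). Ttc37, the other scaffold, had 6.76 ± 0.700 and 4.798 ± 0.970 FPKM with CHIR99021 and DMSO (limma adjusted p = 0.0904, or 0.0109 with the replicate block), and the helicase gene Skiv2l had 22.7 ± 5.33 and 22.6 ± 4.70 FPKM (limma adjusted p = 0.994).

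Outside these groups, few RNA decay genes were called. Of all tested genes, 21.4% were called, 8.13% higher and 13.3% lower, or 42.8% in either direction with the replicate block. Of 15 genes of the adaptors that hand nuclear RNA to the exosome (TRAMP, NEXT, PAXT and the cap-binding complex), 0 were called, or 2 higher and 1 lower with the replicate block (median log2 change 0.05). Of 14 genes for decapping, 5′-end decay and exosome-independent decay, 0 were called, or 1 higher with the block (median 0.02). Of 14 genes of deadenylases and of proteins in or linked to their complexes (the deadenylase list), 0 were called, or 2 higher and 2 lower with the block (median 0.00). In these 3 lists, the counts at an unadjusted p under 0.05 were 2, 1 and 1, against 35.8% of all tested genes in either direction. Among 5 genes of transcription elongation, termination and stalled RNA polymerase II, 1 was called lower, or 2 lower with the block (median -0.07). That gene was Supt4a, which encodes a subunit of the elongation factor DSIF, with 101, 94.9 and 115 FPKM in CHIR99021 replicates 1, 2 and 3, against 212, 133 and 197 FPKM in DMSO replicates 1, 2 and 3 (limma adjusted p = 0.0186, but 0.0531, 0.0634 and 0.0703 without CHIR99021 replicate 1, CHIR99021 replicate 2 or DMSO replicate 3).

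**Figure D4:**
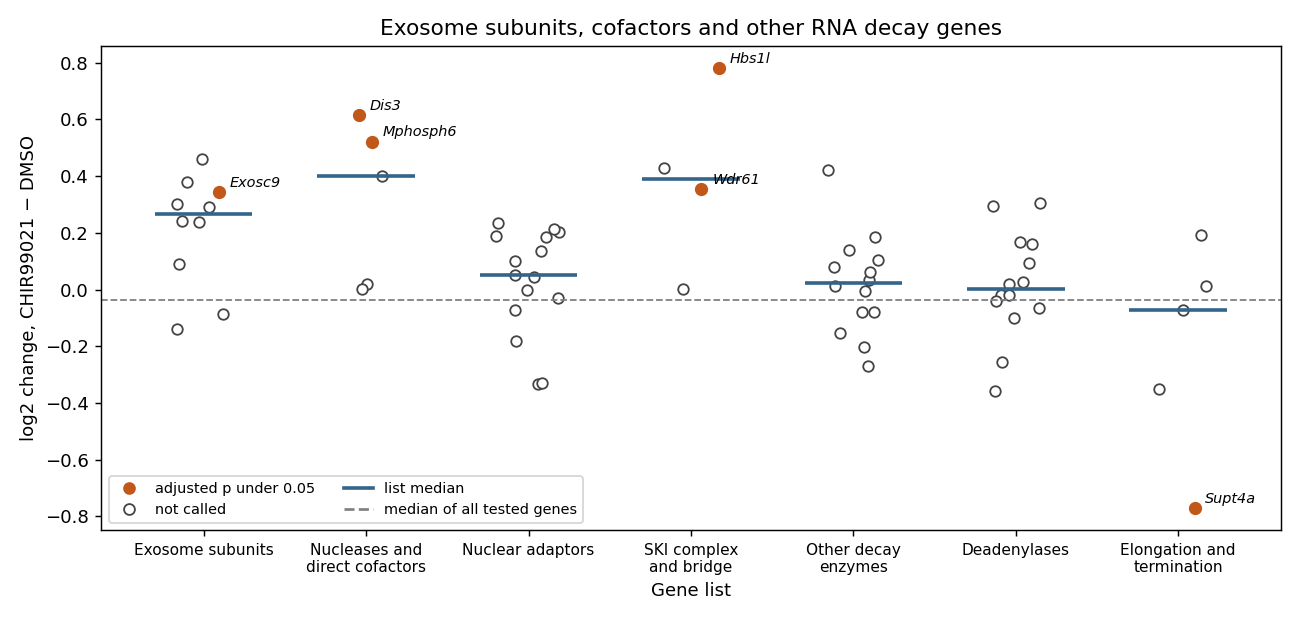
Log2 change (CHIR99021 minus DMSO) of each gene of the exosome and of 6 lists of cofactors and RNA decay genes; filled points passed limma's test at an adjusted p under 0.05, thick lines are list medians and the dashed line is the median of all tested genes (-0.04). The medians are 0.27 for exosome subunits, 0.40 for nucleases and direct cofactors and 0.39 for the SKI complex, and between -0.07 and 0.05 for the other lists. The exosome genes and all lists were chosen with earlier results of these data known.

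Several facts of the libraries touch these values. The summed FPKM per library ran from 556644 to 616427 with CHIR99021 and from 527290 to 617449 with DMSO, with replicate 2 lowest in both groups. The number of sequenced fragments is not stated, but the deposited confidence limits of the members lay between 6.60% (an Exosc10 value) and 23.6% (an Exosc4 value) from the value, widths that counting 920 and 71.5 fragments would give. The 6 B cell markers checked were present in all libraries, with a summed level of 1281 to 1522 FPKM with CHIR99021 and 2579 to 3433 FPKM with DMSO. The 8 fibroblast markers summed to 273, 107 and 63.7 FPKM in CHIR99021 replicates 1, 2 and 3, against 354, 127 and 84.8 FPKM in DMSO replicates 1, 2 and 3, and 6 of the 8 had a mean of 1 FPKM or more. The 6 plasma cell markers summed to 471 to 588 FPKM with CHIR99021 and 489 to 767 FPKM with DMSO. Cd3e and Cd14 were listed at 0 in every library, with 5 T cell markers summing to at most 0.83 FPKM with CHIR99021 and 1.54 FPKM with DMSO, and 6 myeloid markers to at most 5.74 and 8.05 FPKM. The part of these other cells in the exosome values was not tested, and in bulk RNA fewer cells of a type and less RNA per cell cannot be told apart.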

How the data were processed

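Messenger RNA libraries of 6 cultures (3 with CHIR99021, 3 with DMSO) were compared. Per the labels' protocols, library construction used the TruSeq Stranded mRNA kit, on total RNA from an RNeasy kit. Cufflinks 2.2.1, TopHat2 2.1.1, cutadapt 1.12 and mm10 are named per the submitters' processing notes, while the sources used here do not give the annotation, the strand setting or the handling of multiply mapped reads. For each library, the authors deposited 1 table with a gene FPKM and its confidence limits, per the file headers. A count model was not applied to FPKM. Genes whose spans overlap others (Exosc6, Exosc9) are less certain.

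The 10096 entries averaging at least 1 FPKM were fitted, as log2(FPKM + 1), with limma 3.58.1 in R 4.3.3 (lmFit, eBayes with a variance trend, two-sided, Benjamini-Hochberg over all tested genes, threshold 0.05). Folds are ratios of mean FPKM. A log2 change understates the change of low genes. The limits of an entry were read as 2 SD of fragment counting, and for 78.0% to 80.0% of low entries per library this gave a whole number within 0.02. The fit was tested on simulated data with known changes, and it missed many of the smaller ones. A gene that was not called was therefore not shown to be unchanged. Tables and figures were made with matplotlib 3.10.9, numpy 2.4.6 and pandas 2.3.3 in Python 3.11.15. Coordinates are deposited spans on mm10, counted from 1.

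Replicate numbers 1 to 3 occur in the titles of both groups. Across genes, each library's deviations from its group mean had correlations of 0.535, 0.490 and 0.517 with those of the same-numbered library and of -0.352 to -0.140 with those of the others. Deviations from a group mean cancel within the group, so the negative correlations follow largely from the positive ones. They are no separate sign of pairing. From the positive correlations, the numbers were taken to pair the cultures. No pair of libraries shared more than 0.228% of its values. The exosome genes and all lists were chosen with earlier results of these data known. The genes named are all 10 subunits, all nucleases, direct cofactors and SKI genes, and up to 4 called genes of each other list; a further gene, fixed by name, is not reported here. Overlapping neighbours and gene ratios were added after values were seen. In all, 15 other settings were tried.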

Additional observations from a re-analysis of the deposited data

How the results depend on the processing

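The 10 subunit genes kept the sign of their log2 change in all 15 other settings (pseudocounts of 0.1 and 5, other limits on level, 3 other scalings, no variance trend, the replicate block and each library left out), except Exosc5 without DMSO replicate 1 (log2 change 0.00551, range -0.283 to 0.00551 over the 6 fits that leave out a library) and Exosc10 without CHIR99021 replicate 2 (-0.0107, range -0.0107 to 0.169). Other limits on level, no variance trend and the replicate block leave each estimate as it was, so no sign could change there. The pseudocounts could hardly change a sign, which leaves the scalings and the fits without a library. The number of subunit genes called, all of them higher, was 1 in the reported fit and 0 without a limit on level, with each library scaled to the same total, and without a variance trend. It was 2 with a limit of 5 FPKM, 3 with upper-quartile scaling, 4 with quantile normalization and 7 with the replicate block, and 0 to 1 when a library was left out. It was 0 in 4 of these 6 fits, those without CHIR99021 replicate 2 or 3 or DMSO replicate 1 or 3, and without CHIR99021 replicate 1 the gene called was Exosc7 (adjusted p = 0.0463). Over the 15 settings, the adjusted p ran from 0.00558 to 0.209 for Exosc9 (called in 7) and from 0.00246 to 0.161 for Exosc7 (called in 5). The number of all genes called was 2164 of 10096 (21.4%), against 4321 (42.8%) with the replicate block. It was 1711 of 16287 without a limit on level, 1969 of 7302 with a limit of 5 FPKM and 1948 of 10096 without a variance trend. With libraries scaled to the same total, upper-quartile scaling and quantile normalization it was 1637, 2289 and 2406 of 10096. It was 1061 to 1983 when a library was left out, at 1410 without CHIR99021 replicate 2, 1061 without CHIR99021 replicate 3 and 1310 without DMSO replicate 3.

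Nucleases and direct cofactors had 0 calls, in place of 2, with libraries scaled to the same total, and 1 to 2 with a library left out. The SKI genes had 1 call, in place of 2, without a limit on level, with the same total and without a variance trend, and 1 to 2 with a library left out. With the replicate block, calls were 3 for nuclear adaptors, 1 for decapping and other decay, 4 for deadenylases and 2 for elongation and termination genes. Other decay and deadenylases each had 1 call with upper-quartile scaling and with quantile normalization, and deadenylases had 1 with a limit of 5 FPKM. Leaving out a library gave 0 to 1 calls for nuclear adaptors, other decay and deadenylases, and 0 to 2 for elongation and termination genes, where the call of Supt4a was lost without CHIR99021 replicate 1 or 2 or DMSO replicate 3. The cause of these differences was not tested. The deposited confidence limits did not enter the fit, and the number of sequenced fragments is not stated.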
